A study of Mus musculus with 19 samples.

Results

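The genes described here are those that the authors' deposited tables annotate to calcium signalling or to contraction of heart muscle, in mouse P19CL6 cells on their way to beating heart muscle. P19CL6 is a line of undifferentiated embryonal carcinoma cells known for turning into cardiomyocytes in culture. The 19 libraries come from 5 days of differentiation, with 3 libraries at day 1 and 4 at each of days 4, 7, 10 and 14. All groups are the same line, and the labels differ between groups by the day alone; the inducing agent is not given in the sources used here. Spontaneous beating was seen at day 14, according to the design text. The assay was digital gene expression tag profiling: a transcript molecule yields a short sequence tag whatever its length, and tags are counted.

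A gene was taken as a member where its pathway annotation held "Calcium signaling pathway" or "Cardiac muscle contraction" and none of the neuroactive ligand-receptor, MAPK, Wnt or focal adhesion pathways. Of 4213 genes listed in any of the 4 deposited tables, 76 carried at least 1 of the 2 annotations. A further excluded pathway removed 31 of them, and Tnnt2 was left out by name, so 44 genes remained. Of these, 30 were annotated to calcium signalling and 15 to cardiac muscle contraction, with Ryr2 in both. No pore or accessory subunit of a voltage-gated calcium channel is among the 44, because those listed also carry the MAPK annotation; the channels that remain are the intracellular release channels Ryr2, Itpr1 and Itpr3. Some annotated genes lie far from calcium handling, such as the growth regulator gene Pa2g4, and 8 of the 15 contraction genes encode subunits of the respiratory chain.

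In a heart muscle cell, calcium that enters through surface channels opens ryanodine receptors on the sarcoplasmic reticulum, and the released calcium binds troponin on the thin filament and starts contraction. Relaxation follows when calcium is pumped back into the store or moved out of the cell, mainly by the sodium-calcium exchanger, whose drive is the sodium gradient kept by the sodium-potassium pump. In other cells, phospholipase C makes inositol trisphosphate, which opens its own receptors on the endoplasmic reticulum, and calmodulin passes the calcium signal on to kinases.

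Levels are given in TPM, tags per gene at a fixed library size, as the authors' value for the day; the tables used here have no values of single libraries. The mean library held between 5.72e+06 and 5.96e+06 tags on each of the 5 days. The spread between libraries cannot be computed, so no p-value is given for any gene. The words rose and fell are used of genes that the deposited table of a day lists as higher or lower than at day 1, which in every case means by 2-fold or more. A gene not listed at a day has no value there and is not shown to be unchanged. Folds rest on tags summed over the libraries of a day, and brackets give exact 95% intervals that cover counting error only. For genes without a tag at day 1, folds are lower bounds computed against 3 tags summed over that day's 3 libraries, or 0.172 TPM.

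Promoter sequences are shown for 3 genes of heart muscle calcium release, calcium removal and the thin filament that rose by day 14, the exchanger gene Slc8a1, the ryanodine receptor gene Ryr2 and the tropomyosin gene Tpm1. They come from RefSeq (build GRCm38.p6) and run from 250 bases before to 50 bases after the annotated start, on the minus strand in each case, at chr17:81738338-81738637, chr13:12106896-12107195 and chr9:67049164-67049463. Capitals mark matches on either strand to the GATA motif (AGATAA or TGATAA) or to the MCAT motif (CATTCC), which GATA and TEAD factors are known to bind.
Slc8a1: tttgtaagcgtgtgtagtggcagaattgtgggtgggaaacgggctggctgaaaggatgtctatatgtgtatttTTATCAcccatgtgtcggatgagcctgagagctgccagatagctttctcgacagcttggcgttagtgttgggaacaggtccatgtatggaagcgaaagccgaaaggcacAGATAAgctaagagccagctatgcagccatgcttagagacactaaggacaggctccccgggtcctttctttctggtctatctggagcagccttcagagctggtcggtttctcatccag
Ryr2: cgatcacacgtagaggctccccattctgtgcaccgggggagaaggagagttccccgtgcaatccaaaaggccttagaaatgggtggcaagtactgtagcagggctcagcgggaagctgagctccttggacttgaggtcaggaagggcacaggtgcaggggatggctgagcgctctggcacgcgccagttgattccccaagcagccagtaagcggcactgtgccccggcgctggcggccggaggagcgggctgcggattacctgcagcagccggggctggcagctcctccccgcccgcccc
Tpm1: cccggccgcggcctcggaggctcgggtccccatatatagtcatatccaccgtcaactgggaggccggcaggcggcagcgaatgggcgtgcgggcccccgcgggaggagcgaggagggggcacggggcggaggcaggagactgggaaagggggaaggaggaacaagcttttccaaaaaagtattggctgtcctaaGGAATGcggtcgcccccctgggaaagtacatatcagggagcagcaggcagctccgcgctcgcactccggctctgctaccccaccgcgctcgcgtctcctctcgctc

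The Slc8a1 window holds 2 GATA matches, which begin 177 and 68 bases upstream of the start, and the Tpm1 window holds 1 MCAT match, 56 bases upstream. The Ryr2 window holds no match to either motif, nor to the CArG box or the MEF2 motif, which were also searched on both strands. GATA matches occur in 18.6% of all 32851 RefSeq windows of this length and in 10 of the 38 windows of the 32 members that have one. For MCAT the values are 14.7% of all windows and 8 member windows. A CArG box was found in 1.63% of all windows and, among members, in the windows of Slc25a23 alone, a gene that fell. These matches describe the letters of the windows, and the annotated start need not be the start used in these cells.

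The 44 genes held more falls than rises at day 4 and more rises than falls at days 10 and 14, and over all listed genes too rises outnumbered falls at days 10 and 14. At day 4, 8 members rose and 14 fell (18.2% and 31.8% of 44), against 21.3% and 20.9% of all 4213 genes. At day 7, 11 rose and 10 fell (25% and 22.7%), against 25.9% and 14.9% of all genes. At day 10, 16 rose and 4 fell (36.4% and 9.09%), against 40.2% and 14.2%, and at day 14, 20 rose and 7 fell (45.5% and 15.9%), against 49.8% and 17.2%. The share of members that rose was thus within 5 percentage points of the share of all genes at each day, which is no result about the members. The share that fell was above that of all genes at days 4 and 7, below it at day 10 and close to it at day 14. The balance depends on which genes are counted: among members at or above the median level of each table, 2 rose and 9 fell at day 4 and 5 rose and 6 fell at day 14. The shares of all genes under that limit were not computed, so these counts are no result about the members. With the genes of the 4 excluded pathways counted as members, 20 rose and 17 fell at day 4.

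**Figure D1:**
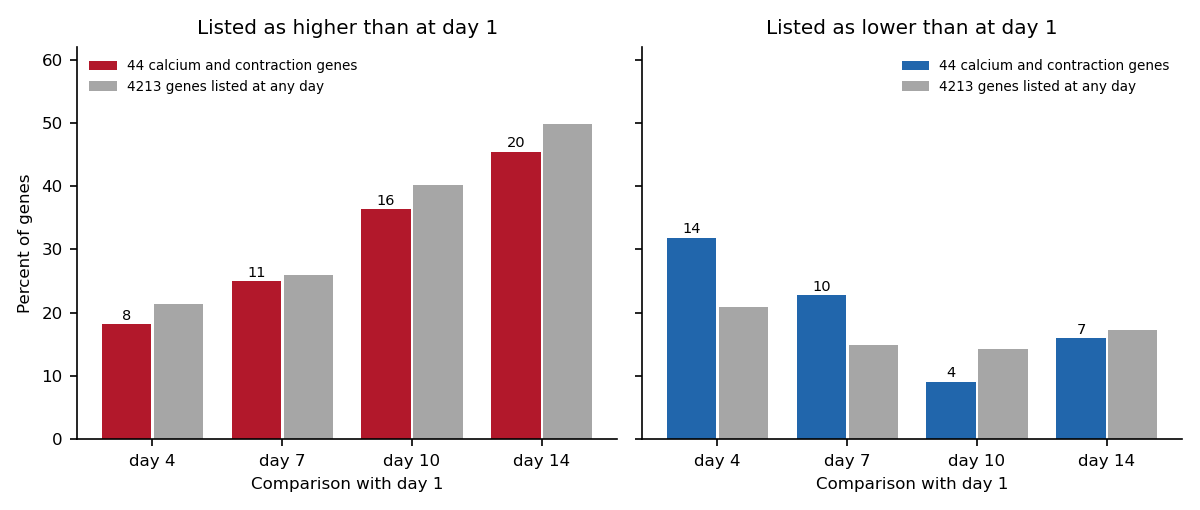
Percent of genes listed as higher (left) or lower (right) than at day 1 in the authors' deposited tables, for the 44 calcium and contraction genes (coloured, with the number of genes above each bar) and for all 4213 genes listed at any day (grey). The coloured bars for higher genes stand at 18.2% to 45.5%, close under the grey bars, and the coloured bars for lower genes stand above the grey ones at days 4 and 7.

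The median log2 ratio of the members in the authors' deposited tables, later day over day 1, was -1.18, 1.05, 1.72 and 2.11 at days 4, 7, 10 and 14. The sign at day 4 turns with the genes that enter: over the 5 members listed at all 4 days the median there was 1.55. Over all listed genes it was 1.02, 1.26, 1.49 and 1.59. The members that fell at day 14 had a median level of 316 TPM at day 1, and those that rose at day 14 had a median of 1.52 TPM at day 1. Over all genes the same medians were 43.3 and 4.19 TPM. Listing itself depends on abundance: a gene listed as lower had at least 36 tags at day 1 in every table. The 5 members at 0 tags at day 1 (Ryr2, Cox4i2, Cox6a2, Calml4 and Plcl1) and Adcy2 and Caln1, at 2 tags, could therefore only be listed as higher. The same holds of Slc8a1, Nos3, Tnni3, Camk4, Cabp1 and Tpm2, which had 11 to 33 tags at day 1, so a rise of any of these genes is given as a value and its direction is no finding about a group.

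**Figure D2:**
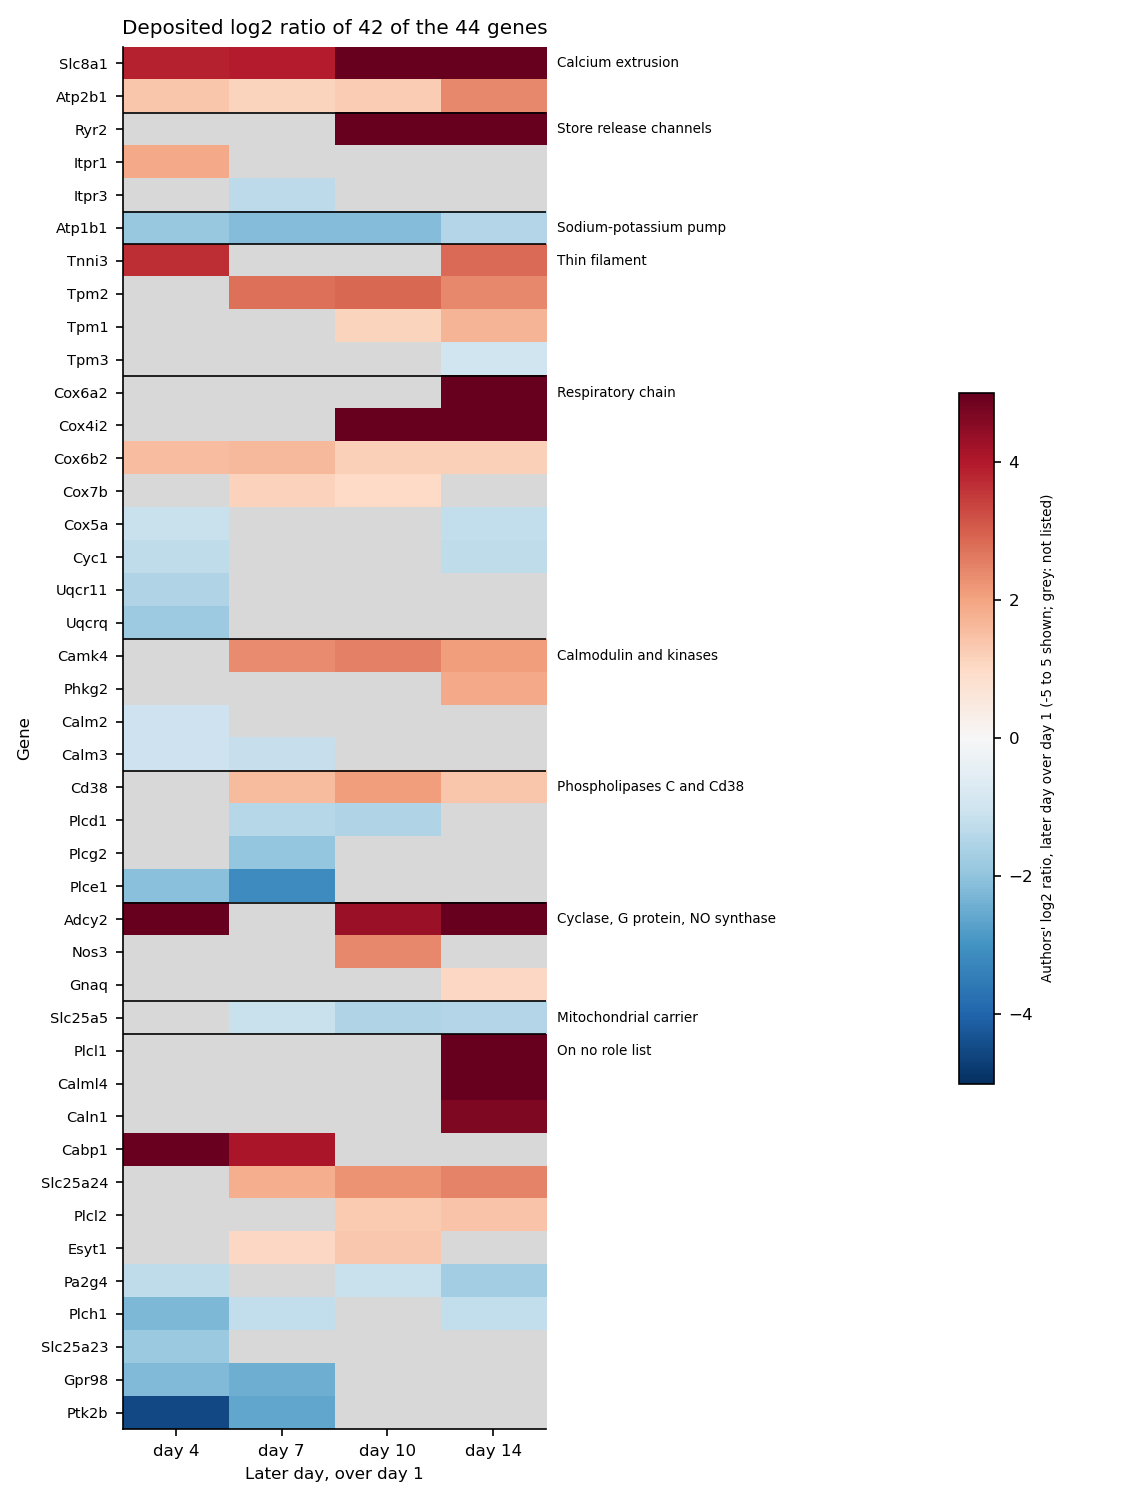
The authors' log2 ratio of 42 of the 44 genes, later day over day 1, by role, with red for higher, blue for lower and grey where the gene is not listed at that day (colours are limited to -5 to 5). Slc8a1, Atp2b1 and Cox6b2 are red at all 4 days, Atp1b1 is blue at all 4, and Calm2 and Calm3 are blue at day 4.

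Slc8a1 and Atp2b1, whose proteins move calcium out of the cell, both rose at all 4 days. At single days 21.3% to 49.8% of all genes rose, and the share that rose at all 4 days was not computed. Of all 4213 genes, 579 were listed at all 4 days, in either direction. The other 5 genes on the list for this role were not listed at any day, and Slc8a1 could only be listed as higher. Slc8a1 (Entrez Gene 20541), the gene for the sodium-calcium exchanger of heart muscle, stood at 0.63, 9.13, 9.55, 50.6 and 81.5 TPM at days 1, 4, 7, 10 and 14. The gene was low at day 1, at a plateau at days 4 and 7 and highest at day 14, where it was 129-fold higher (72.0 to 259) than at day 1. The level at day 7 was 1.05 times that at day 4 (0.863 to 1.27), so these neighbours did not differ beyond counting error. The step between days 7 and 10 was the steepest after day 4, with day 10 at 5.30 times day 7 (4.59 to 6.14), and day 14 stood at 1.61 times day 10 (1.50 to 1.73).

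Atp2b1 (67972), which encodes a plasma membrane calcium pump present in most tissues, stood at 16.4, 42.6, 35.9, 39.1 and 86.0 TPM on the same days. Its level lay in a narrow range over days 4 to 10 and was highest at day 14, which was 2.20 times day 10 (2.03 to 2.38). At day 14 it was 5.24-fold higher (4.63 to 5.95) than at day 1. At day 14 the levels of the exchanger and pump genes were close, with intervals of 77.9 to 85.2 TPM for Slc8a1 and 82.3 to 89.8 TPM for Atp2b1, although Slc8a1 had started far lower.

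**Figure D3:**
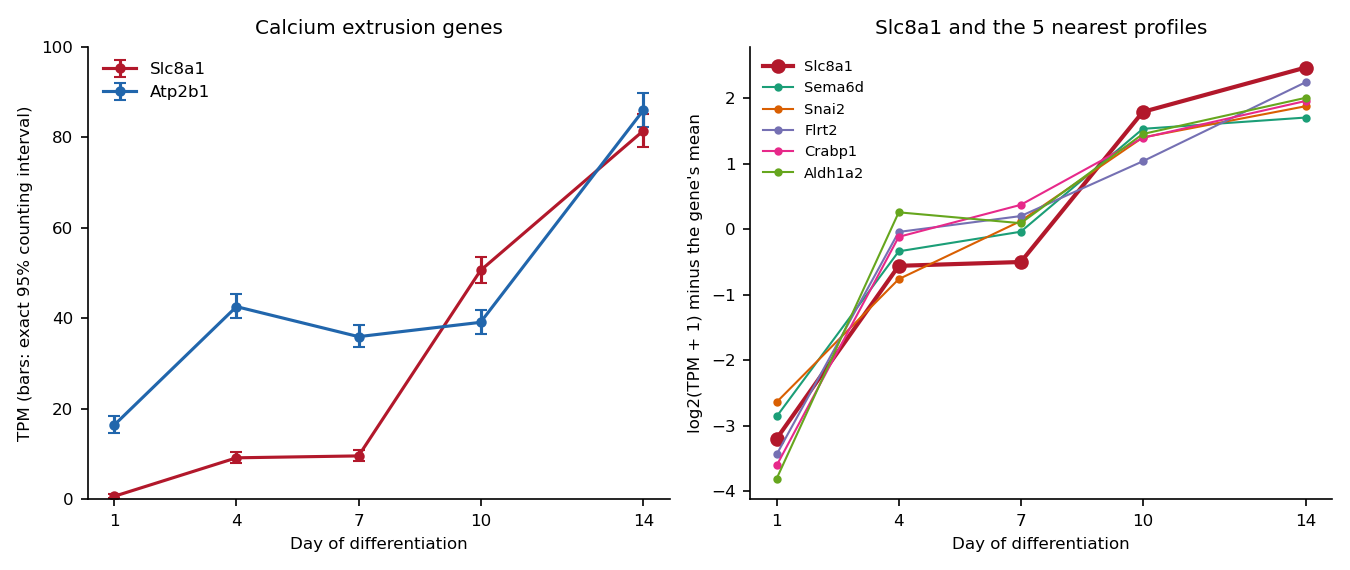
Left, levels of Slc8a1 and Atp2b1 in TPM by day, with exact 95% counting intervals as bars; Slc8a1 climbs to 81.5 TPM and Atp2b1 to 86.0 TPM at day 14. Right, log2(TPM + 1) of Slc8a1 and of the 5 genes with the nearest profile, each minus its own mean over the 5 days.

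Among the 579 genes with a value at all 5 days, the profiles nearest to Slc8a1 were those of Sema6d, Snai2, Flrt2, Crabp1 and Aldh1a2. Likeness was measured as the Euclidean distance between log2(TPM + 1) values over the 5 days after each gene's mean was removed, and it ranged from 1.01 to 1.31 for these 5. Snai2 is a regulator of epithelial-mesenchymal transition, Aldh1a2 makes retinoic acid and Crabp1 binds it. Aldh1a2 stood at 0.12, 17.7, 15.7, 41.8 and 61.8 TPM at days 1, 4, 7, 10 and 14. Sarcomere genes such as Myl7, which first appear in the table for day 10, have no value at days 4 and 7 and could not enter this ranking.

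Ryr2 (20191), the gene for the ryanodine receptor that releases calcium from the sarcoplasmic reticulum, was first listed at day 10 and was low where listed. It had 0 tags at day 1 and stood at 2.23 TPM at day 10 and 5.83 TPM at day 14. These are at least 12.9-fold and at least 33.9-fold higher than at day 1, and day 14 was 2.62 times day 10 (1.89 to 3.68). The day 10 value rests on 51 tags. Every gene listed as higher at day 4 or day 7 had at least 52 tags there, so an earlier start of Ryr2 at a similar level could go unlisted. The inositol trisphosphate receptor genes Itpr1 and Itpr3 were listed at different days, so they cannot be compared at any later day. Itpr1 (16438) rose to 25.3 TPM at day 4, against 6.83 TPM at day 1, 3.70-fold higher (3.03 to 4.54), and Itpr3 (16440) fell to 5.27 TPM at day 7, against 13.0 TPM at day 1, 2.47-fold lower (1.98 to 3.11). After day 1, Itpr1 has a value at day 4 alone and Itpr3 at day 7 alone.

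Of the 4 thin filament genes, 3 rose and 1 fell at day 14, when 49.8% of all genes rose and 17.2% fell. Tpm1 (22003), the tropomyosin gene that heart muscle uses most, stood at 119 TPM at day 10 and 178 TPM at day 14, against 55.5 TPM at day 1, so that day 14 was 3.21-fold higher (2.99 to 3.44). Tpm2, a tropomyosin gene of slow skeletal and smooth muscle, was at 12.6, 13.7 and 9.90 TPM at days 7, 10 and 14, against 1.89 TPM at day 1. Tpm3, which gives both slow muscle and cytoplasmic tropomyosin, fell to 22.9 TPM at day 14, against 46.0 TPM at day 1. It was the member nearest to the 2-fold limit among the falls of that day, 2.01-fold lower (1.80 to 2.24).

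Tnni3 (21954), the gene for the adult heart isoform of the inhibitory troponin subunit, was higher at day 4 than at day 14. It stood at 19.5 TPM at day 4 and 10.7 TPM at day 14, against 1.49 TPM at day 1. Day 4 was 13.0-fold higher (8.78 to 20.2) and day 14 was 7.14-fold higher (4.76 to 11.1) than day 1, and the drop between them, 1.83-fold (1.56 to 2.14), exceeded counting error. Other cardiac sarcomere genes on the thin filament and light chain list were not listed at day 4: Tnnt2, Myh7 and Myl3 were first listed at day 10, and Myl2 and Myh6 at day 14, each with 0 tags at day 1. Tnnt2, for example, stood at 8.78 TPM at day 10 and 66.7 TPM at day 14.

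A subunit gene of the sodium-potassium pump fell at every day. Atp1b1 (11931), the gene for the most widespread beta subunit, stood at 10.4, 8.65, 8.56 and 14.1 TPM at days 4, 7, 10 and 14, against 38.4 TPM at day 1. Days 4, 7 and 10 lay close together: day 7 was 0.831 times day 4 (0.686 to 1.01) and day 10 was 0.990 times day 7 (0.809 to 1.21), so neither step exceeded counting error. At day 14 the gene was above day 10, at 1.64 times (1.37 to 1.97), and 2.73-fold lower (2.39 to 3.12) than at day 1.

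**Figure D4:**
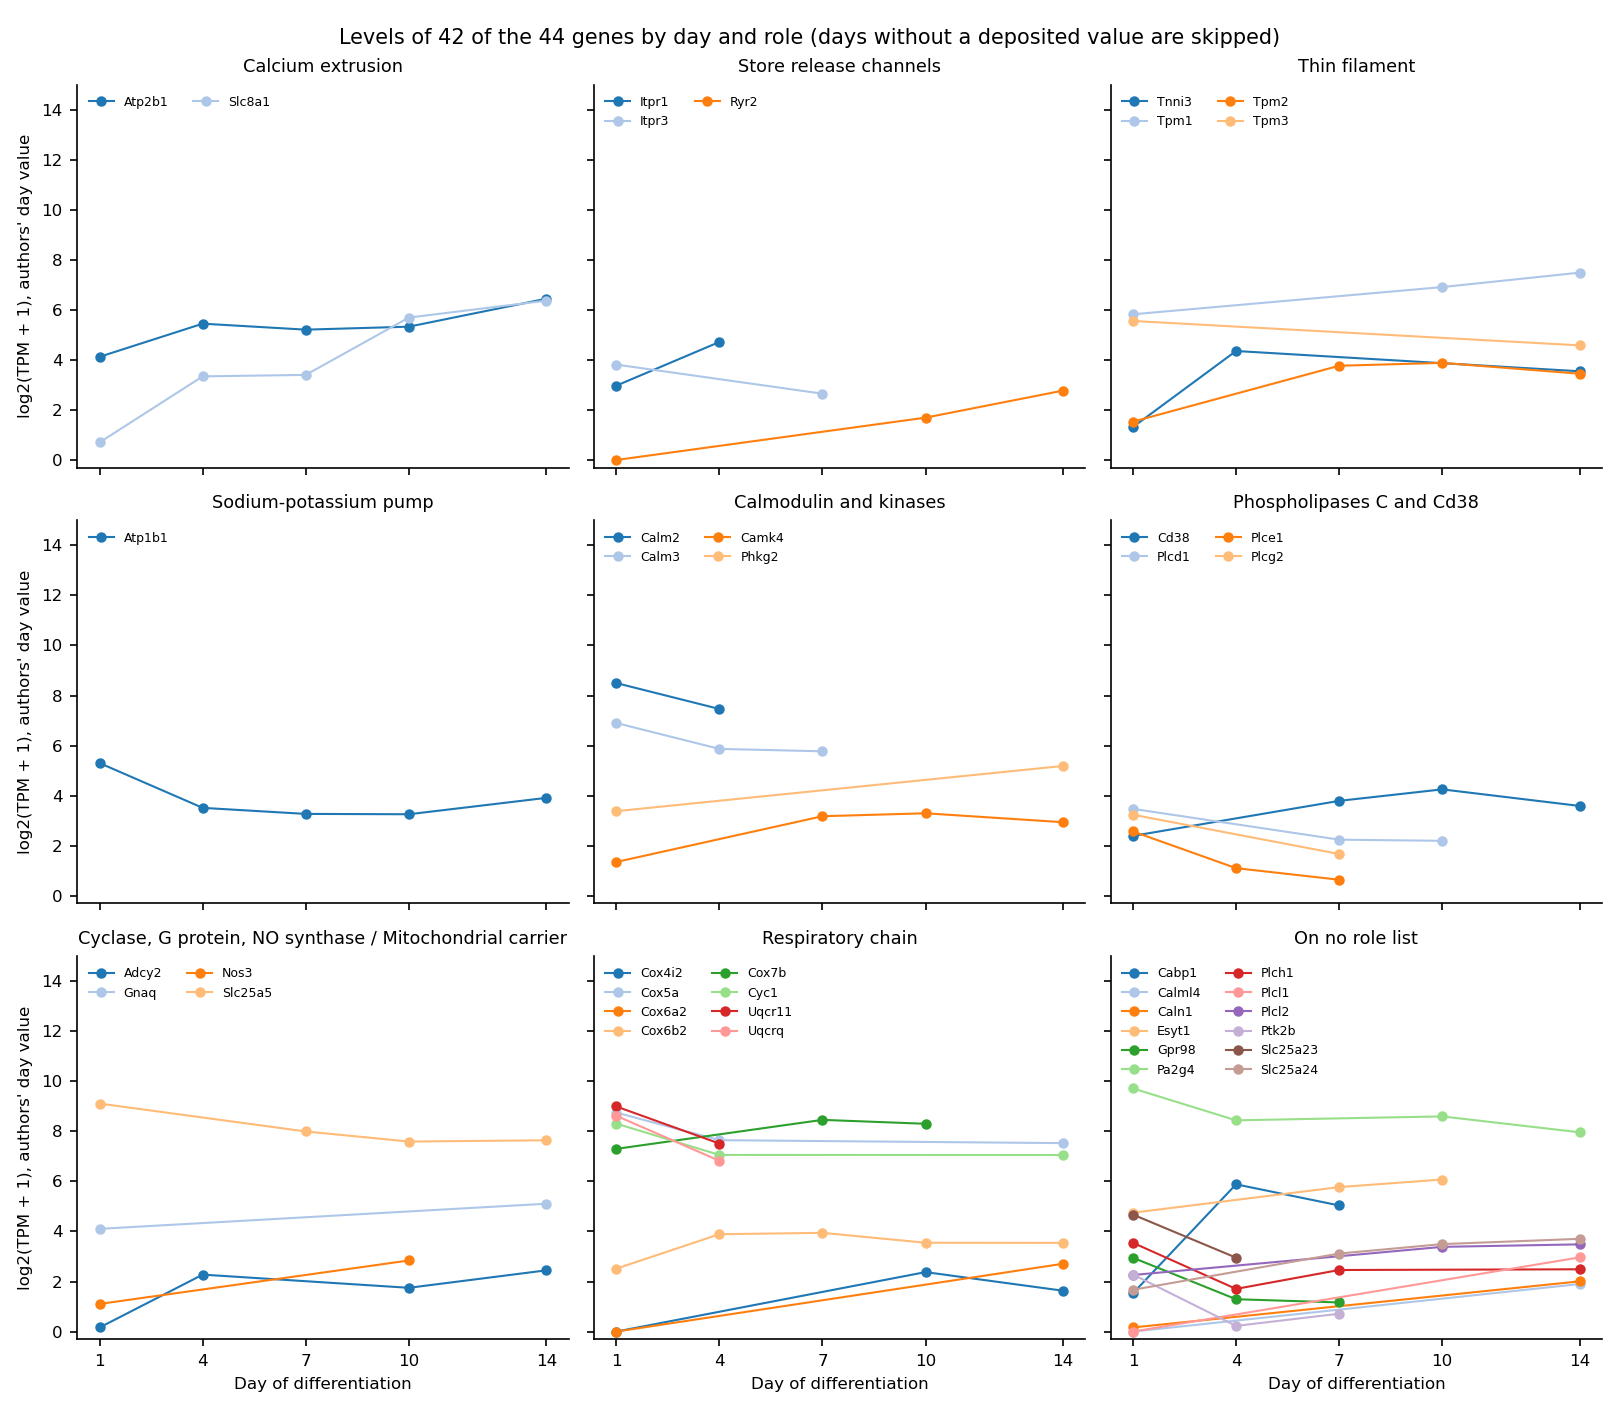
Levels of 42 of the 44 genes as log2(TPM + 1) by day, in 9 panels by role; each point is the authors' value for a day, lines join the days at which a gene has a value, and days at which it is not listed are skipped. Slc8a1 climbs across the days. The abundant respiratory chain and calmodulin genes, except Cox7b, are lower than at day 1 at the later days where they have a value.

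Of the 8 respiratory chain genes, 4 fell at day 4, when 20.9% of all genes fell. The other 4 rose at 1 or more days. The share of all genes that did so was not computed and cannot be below the 49.8% that rose at day 14, so this count is no result about the members. A further 27 gene names on the list for this role were not listed at any day. Cox5a, Cyc1, Uqcr11 and Uqcrq, which encode subunits of cytochrome c oxidase and of the cytochrome bc1 complex in all tissues, fell at day 4. Uqcrq showed the largest fall of the 4, to 112 TPM at day 4, against 393 TPM at day 1, 3.50-fold lower (3.35 to 3.66). Uqcr11 stood at 181 TPM at day 4, against 508 TPM at day 1, 2.80-fold lower (2.70 to 2.91). Cox5a was at 199 TPM at day 4 and 184 TPM at day 14, against 429 TPM at day 1, and Cyc1 was at 132 TPM at both later days, against 316 TPM. Cox7b, also an abundant subunit gene of cytochrome c oxidase, rose, at 350.5 TPM at day 7 and 314 TPM at day 10, against 156 TPM at day 1.

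Cox6a2, Cox4i2 and Cox6b2 encode subunit isoforms of cytochrome c oxidase, and the first 2 could only be listed as higher. Cox6a2 (12862), the heart and skeletal muscle isoform of its subunit, had 0 tags at day 1 and stood at 5.54 TPM at day 14, at least 32.2-fold higher. Cox4i2, an isoform best known from lung, was at 4.19 TPM at day 10 and 2.10 TPM at day 14, against 0 tags at day 1. Cox6b2, known as the testis isoform, was at 13.8, 14.4, 10.7 and 10.7 TPM at days 4, 7, 10 and 14, against 4.71 TPM at day 1. Their counterparts Cox4i1, Cox6a1 and Cox6b1 were not listed at any day. Small genes of this family have processed pseudogene copies in the mouse genome, and how tags shared between copies were counted is not given in the sources used here.

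Calm2 and Calm3, calmodulin genes that encode the same protein, fell at day 4. Calm2 (12314) stood at 175 TPM at day 4, against 361 TPM at day 1, 2.06-fold lower (1.98 to 2.14). Calm3 (12315) stood at 57.4 TPM, against 119 TPM, 2.07-fold lower (1.93 to 2.21). Calm3 was listed again at day 7, at 53.6 TPM, and neither gene was listed at days 10 and 14.

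The kinase genes Camk4 and Phkg2 rose later. Camk4, a calmodulin-dependent kinase of neurons and lymphocytes, stood at 8.05, 8.82 and 6.67 TPM at days 7, 10 and 14, against 1.55 TPM at day 1. Phkg2, a catalytic subunit of phosphorylase kinase, which starts glycogen breakdown, rose to 35.4 TPM at day 14, against 9.41 TPM at day 1, 3.76-fold higher (3.18 to 4.47). The calcium-dependent tyrosine kinase gene Ptk2b fell early instead, to 0.17 TPM at day 4 and 0.64 TPM at day 7, against 3.85 TPM at day 1. Day 4 was 22.5-fold lower (8.40 to 85.1), the largest fall of any member, and rests on 4 tags at that day.

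The phospholipase C genes Plce1, Plcg2, Plcd1 and Plch1 fell at day 7, when 14.9% of all genes fell. Day 7 is the only later day at which all 4 have a value. Plce1 was at 1.15 TPM at day 4 and 0.56 TPM at day 7, against 4.94 TPM at day 1, and day 7 was 8.87-fold lower (4.92 to 17.3). Plcg2 stood at 2.18 TPM at day 7, against 8.44 TPM at day 1, and Plcd1 at 3.73 and 3.58 TPM at days 7 and 10, against 10.1 TPM. Plch1 was at 2.26, 4.50 and 4.61 TPM at days 4, 7 and 14, against 10.7 TPM at day 1. All 4 enzymes split membrane phosphoinositides into inositol trisphosphate and diacylglycerol. Plcl1 and Plcl2, which resemble them but lack the catalytic activity, were listed as higher at day 14, when 49.8% of all genes rose. Plcl1 stood at 6.80 TPM at day 14, at least 39.5-fold higher than the 0 tags at day 1, and Plcl2 at 10.2 TPM, against 3.79 TPM. Plcb1, an active enzyme gene that is no member, rose, to 3.10 TPM at day 14, against 0 tags at day 1. Plcl1 and Plcb1 could only be listed as higher. Of the 14 genes on the list for this role that are no members, Plcb1 alone was listed at any day.

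Cd38, whose enzyme makes the ryanodine receptor messenger cyclic ADP-ribose, stood at 12.9, 18.0 and 11.0 TPM at days 7, 10 and 14, against 4.25 TPM at day 1, highest at day 10. The adenylyl cyclase gene Adcy2 was at 3.84, 2.36 and 4.45 TPM at days 4, 10 and 14, against 2 tags (0.12 TPM) at day 1. Gnaq, the G protein subunit that switches on phospholipase C beta, rose to 33.5 TPM at day 14, against 16.2 TPM at day 1, 2.07-fold higher (1.80 to 2.38). Nos3, the nitric oxide synthase gene of endothelium, was listed at day 10 alone, at 6.16 TPM, against 1.15 TPM at day 1, 5.37-fold higher (3.35 to 9.05). At day 10, when 40.2% of all genes rose and 14.2% fell, 10 of 13 endothelial and blood markers rose and 1 fell. The summed level over these 11 was 219 TPM, against 12.7 TPM at day 1. The part of these markers in the Nos3 result was not tested.

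The mitochondrial carrier genes were not all listed at the same days. Slc25a5 (11740), the ADP/ATP carrier of dividing cells, was at 254, 192 and 199 TPM at days 7, 10 and 14, against 551 TPM at day 1, and day 14 was 2.77-fold lower (2.68 to 2.87). Slc25a23 and Slc25a24 both encode calcium-regulated carriers of ATP-magnesium and phosphate. Slc25a23 fell to 6.74 TPM at day 4, against 24.5 TPM at day 1, and Slc25a24 rose to 7.67, 10.3 and 12.0 TPM at days 7, 10 and 14, against 2.18 TPM at day 1. They share no later day, so they cannot be compared at any later day. Slc25a24 had 38 tags at day 1. Every gene listed as lower had at least 40 tags at day 1 in the table for day 7 and 39 in that for day 14. Slc25a24 could thus only be listed as higher at these days.

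Cabp1, Caln1 and Calml4 encode small calcium-binding proteins related to calmodulin, and with 33, 2 and 0 tags at day 1 none of them could be listed as lower. Cabp1 (29867), known from neurons as a regulator of calcium channels and inositol trisphosphate receptors, stood at 58.0 TPM at day 4 and 31.9 TPM at day 7, against 1.89 TPM at day 1. Day 4 was 30.6-fold higher (21.7 to 44.6), and Cabp1 was not listed after day 7. Over days 4 and 7 no neural marker on the list of 16 rose, while 4 fell at day 4 and 5 at day 7. The other 12 at day 4 and 11 at day 7 were not listed and have no value there. The part of neural markers in the Cabp1 result was not tested. Of all genes, 21.3% rose and 20.9% fell at day 4, and 25.9% rose and 14.9% fell at day 7. Caln1, a relative of brain, was at 3.02 TPM at day 14, against 2 tags at day 1. Calml4 stood at 2.73 TPM at day 14, at least 15.8-fold higher than the 0 tags at day 1. At day 14, when 49.8% of all genes rose and 17.2% fell, 4 neural markers rose and 3 fell. The summed level over these 7 was 77.1 TPM, against 186 TPM at day 1. The part of these markers in the Caln1 result was not tested.

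The remaining members have a looser tie to calcium. Pa2g4 (18813), a growth regulator that binds the ErbB3 receptor, was the most abundant member, at 346, 386 and 248 TPM at days 4, 10 and 14, against 839 TPM at day 1, and day 14 was 3.38-fold lower (3.28 to 3.48). Esyt1, a tether between the endoplasmic reticulum and the plasma membrane, was at 53.6 and 66.4 TPM at days 7 and 10, against 25.9 TPM at day 1. Gpr98, a very large adhesion receptor, fell to 1.45 TPM at day 4 and 1.24 TPM at day 7, against 6.72 TPM at day 1.

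Of the annotations that the rule did not use, the gene ontology term for the mitochondrial inner membrane covered 10 of 44 members (22.7%), against 1.57% of all 4213 genes, and these were 7 of the 8 respiratory chain genes and the 3 carriers. Calcium ion binding covered 14 members (31.8%), against 3.35% of all genes. The caveola, a pit of the cell surface, was annotated for 9.09% of members, including Slc8a1, Atp1b1 and Gnaq, against 0.498% of all genes. Pathway and ontology labels draw partly on the same knowledge, so these shares are descriptions.

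Genes of the same processes that the rule left out were followed from fixed lists. At day 14, 49.8% of all 4213 genes rose and 17.2% fell, but the fixed lists, unlike the 4213, also hold genes that were not listed at any day. Of 34 surface calcium channel genes, 3 rose, 1 fell and 30 were not listed at day 14. Cacna1c, the pore of the L-type channel that starts the heartbeat's calcium release, stood at 0.57, 3.88, 4.84, 8.17 and 7.22 TPM at days 1, 4, 7, 10 and 14. Of the genes for T-type pores, Cacna1h rose to 12.3 TPM at day 14, against 3.79 TPM at day 1, and Cacna1g fell to 9.02 TPM, against 22.2 TPM. Pln, the brake on the calcium pump of the sarcoplasmic reticulum, was at 2.14 TPM at day 10 and 11.7 TPM at day 14, against 0 tags at day 1. The pump genes Atp2a1, Atp2a2 and Atp2a3 and the store protein genes Casq1 and Casq2 were not listed at any day. Of 27 further cardiac ion channel and calcium-binding genes, 6 rose, 1 fell and 20 were not listed at day 14. Kcnj2, a potassium channel gene that sets the resting potential, stood at 3.10 and 6.75 TPM at days 10 and 14, against 0 tags at day 1. The gap junction gene Gja1 was the 1 that fell, to 224 TPM at day 14, against 464 TPM at day 1.

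Markers of the cell types these cultures can hold were counted in the same way. Over all 4213 genes, 25.9%, 40.2% and 49.8% rose at days 7, 10 and 14. The marker lists, unlike the 4213, also hold genes that were not listed at any day. Of 20 cardiomyocyte markers, 14 rose and 0 fell at day 14, and 10 of the 14 had 0 tags at day 1; their summed level was 711 TPM at day 14, against 5.22 TPM at day 1. Slc8a1, Ryr2 and Tnni3 are themselves on that list. At day 10, 10 rose, with a summed level of 198 TPM, against 3.61 TPM at day 1. Of 9 smooth muscle markers, 3 rose at day 7, the day at which Tpm2 was first listed, with a summed level of 378 TPM, against 22.3 TPM at day 1, and 2 rose at day 14 (113 TPM, against 18.5 TPM at day 1). No skeletal muscle marker of 17 was listed at day 14. The part of these markers in the results was not tested, and in bulk cultures more cells of a type and more RNA per cell cannot be told apart.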

How the data were processed

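Per the labels' protocols, P19CL6 RNA was made into tag libraries using Illumina's DGE kit (version 2.1B). The submitters' processing notes name build mm9, and neither an aligner nor a statistical test is given in the sources used here. For each gene, the 4 deposited tables give the authors' average tag count of a day, the authors' deposited TPM of a day and the authors' deposited log2 ratio, later day over day 1. They hold 0 columns of single libraries. Per the design text, the tables were filtered by FDR. The deposited columns headed P-Value and FDR were treated as scores of unknown meaning and were not used, since the FDR exceeds 1 for 55.9% to 60.2% of genes.

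Each mean count times the number of libraries was whole (within 0.03 tags at day 1, 0.04 later) for 100% of genes, which gave tag sums. A deposited TPM of 0.01 marks 0 tags and was read as 0. The group totals implied by the deposited counts and TPM were 1.74e+07 tags at day 1 and between 2.29e+07 and 2.38e+07 later. Folds and levels carry exact 95% intervals (Clopper-Pearson and Poisson), tested on simulated data; they cover counting error only.

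Members and the 17 gene lists (12 by role, 5 of markers) were chosen with earlier results of these data known, and the promoter motifs after the values were seen. All members enter the counts, and 42 of them are described; values of the other 2 are not reported here. The rule for full values was, per role, members whose highest level reached the median of members (22.0 TPM), at most the 4 with the largest change, and Slc8a1, 21 genes in all; the other folds printed were chosen after their values were seen. The alternatives were an abundance limit, a 4-fold limit, the excluded pathways counted, log2(TPM + 1) and members listed at all 4 days. Statistics were computed with scipy 1.17.1 and numpy 2.4.6, tables with pandas 2.3.3 and figures with matplotlib 3.10.9, under Python 3.11.15.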

Additional observations from a re-analysis of the deposited data

How the results depend on the processing

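With members below the median level of a table left out, the members that rose numbered 2, 5, 5 and 5 at days 4, 7, 10 and 14, and those that fell 9, 3, 3 and 6, so that falls outnumbered rises at day 14. The shares of all genes under this limit and under the 4-fold limit were not computed, so whether all genes behave alike is not known. With a log2 ratio of at least 2 in size, 5, 5 and 10 rose at days 4, 7 and 10, and 4, 4, 1 and 0 fell at days 4, 7, 10 and 14. With the genes of the 4 excluded pathways counted, 20, 21, 30 and 40 rose at days 4, 7, 10 and 14, and 17, 14, 8 and 11 fell, so that rises outnumbered falls at day 4. Over the 5 members listed at all 4 days the median log2 ratio was 1.55 at day 4, positive in place of -1.18, and 1.61, 1.25 and 2.39 at days 7, 10 and 14; fewer genes enter it by construction. On the log2(TPM + 1) scale the medians were 1.02, 1.46 and 1.66 at days 7, 10 and 14. No paired analysis was possible because the columns carry no values of single libraries, and leaving out a replicate was not run for the same reason. A gene at few tags at day 1 could be listed only as higher, and folds against 2 tags have intervals that span more than an order of magnitude.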
